A study of Mus musculus with 5 samples.

Results

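The genes described here are 32 enzymes and carriers that break fatty acids down by beta-oxidation. They were taken by symbol from a fixed list: 20 act in mitochondria, 4 in peroxisomes, 4 in both organelles, and 4 are acyl-CoA synthetases that activate fatty acids before either route. All 32 were among the 78334 gene identifiers of the count table, and all 32 had enough counts to be among the 24779 genes tested. The question put to the data was how the levels of these genes compared between libraries labelled as control, obesity and resveratrol-treated fat. A further question was whether the mitochondrial and peroxisomal members moved alike.

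Messenger RNA came from the visceral fat of male C57BL/6 mice, with no genetic change named for any group. The labels give 1 schedule for all groups, with mice 8 weeks old at the start of the diets and 16 weeks old at the start of 28 days of daily dosing by gastric tube. The control group, on standard chow and given vehicle, had 1 library. The obesity group had 2 libraries, from mice that spent 8 weeks on a diet with 60% of its calories from fat and then received vehicle. Resveratrol was represented by 2 libraries, from mice on the same diet that were then dosed with resveratrol, a polyphenol found in grapes, at 2.25 mg/kg. Tissue was collected 12 weeks after the diet began. The labels do not say whether libraries of a group came from different mice, or whether animals were pooled, so the p-values reflect only how far such libraries differ, which may be technical. The high-fat diet is common to the obesity and resveratrol groups.

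Levels are CPM, a count relative to the total of its library with totals rescaled by TMM factors, and library totals ran from 19540961 to 27026597 counts. Several libraries stood apart from the tissue on their labels. In the control library the 10 adipocyte markers had a median of 1.84% of their obesity mean, with Adipoq (adiponectin) at 14.2 CPM against 1225 and 1587 CPM in obesity. The same library held the 8 epididymis markers at a summed 55360 CPM, led by the epididymal peroxidase gene Gpx5 at 28097 CPM. Those 8 markers summed to 16.4 and 0.0952 CPM in obesity libraries 1 and 2. They summed to 3403 CPM in resveratrol library 1, nearly all of it Crisp1, and to 0.0778 CPM in resveratrol library 2. Resveratrol library 1 also held the 8 smooth muscle markers at 46150 CPM, of which the smooth muscle myosin gene Myh11 made 19257 CPM, against 363 to 2338 CPM for the list in the other libraries. Its adipocyte markers had a median of 25.4% of the obesity mean, and those of resveratrol library 2 had 115%. Every result below that uses the control library or resveratrol library 1 therefore compares libraries that also differ in these markers, and the part these other cells play was not tested.

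Beta-oxidation shortens an acyl-CoA by 2 carbons per turn through dehydrogenation, hydration, a further dehydrogenation and thiolysis. Long chains reach the mitochondrial matrix as carnitine esters, and the electrons of the first step pass to the respiratory chain through electron transfer flavoprotein. Peroxisomes use their own enzymes to shorten very long and branched chains, with an oxidase in place of the first dehydrogenase. White fat mainly stores and releases fatty acids, and many of these genes are known targets of PPAR nuclear receptors.

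Promoter windows of the members were compared because enzymes of one pathway can share regulatory sequence. RefSeq windows on build GRCm38.p6, from 250 bases before to 50 bases after each gene's start, were found for 27 of the 32 members. The GC box GGGCGG, searched on both strands, was in 21 of these 27 members, against 54.4% of the 17640 windows of tested genes and 35.7% of all 32851 windows. The CCAAT box, also on both strands, was in 13 of 27, against 36.9% of tested-gene windows. The PPAR direct repeat, a pair of AGGTCA with 1 base between, was in 0 of 27 and in 0.0396% of all windows, and the ERR site TCAAGGTCA was in 0 of 27 and in 0.423%. Exact matches to both are so rare over all windows that 0 of 27 cannot tell the members from other genes. The shorter AGGTCA, which lies within both of those motifs, was in 4 of 27 (Acadm, Acadvl, Cpt1a and Echs1) against 13.8% of tested-gene windows and 16.3% of all windows. These are matches of letters in a short window and show no binding.

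The upstream bases of Hadhb are shown because Hadha and Hadhb, which encode the alpha and beta subunits of the mitochondrial trifunctional protein, start head to head with 272 bases between their starts, and 228 of the 250 upstream bases are shared by both. Those of Acaa1a and Acaa1b are shown because these near-identical peroxisomal thiolase genes had different levels across the libraries. The 250 bases before each start on GRCm38.p6 are given 5′ to 3′ on the gene's own strand, chr5:30155003-30155252 (+), chr9:119341044-119341293 (+) and chr9:119157094-119157343 (-), with capitals marking GGGCGG and CCAAT on either strand.
Hadhb: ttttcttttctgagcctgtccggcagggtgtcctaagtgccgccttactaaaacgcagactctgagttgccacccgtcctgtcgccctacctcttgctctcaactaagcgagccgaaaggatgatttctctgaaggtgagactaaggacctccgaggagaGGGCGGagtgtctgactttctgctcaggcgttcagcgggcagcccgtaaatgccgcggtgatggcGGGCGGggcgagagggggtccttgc
Acaa1a: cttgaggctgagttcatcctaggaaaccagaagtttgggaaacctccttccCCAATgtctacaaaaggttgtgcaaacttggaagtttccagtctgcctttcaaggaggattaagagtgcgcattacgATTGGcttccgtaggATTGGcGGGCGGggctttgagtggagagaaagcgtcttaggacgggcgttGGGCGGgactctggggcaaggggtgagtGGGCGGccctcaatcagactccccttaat
Acaa1b: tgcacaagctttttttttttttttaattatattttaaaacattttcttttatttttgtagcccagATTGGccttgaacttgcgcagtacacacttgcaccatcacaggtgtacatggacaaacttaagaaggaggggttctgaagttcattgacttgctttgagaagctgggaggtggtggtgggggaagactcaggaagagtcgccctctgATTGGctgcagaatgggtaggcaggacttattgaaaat
The Hadhb window holds 2 GC boxes and 0 CCAAT boxes, that of Acaa1a holds 3 of each, and that of Acaa1b holds 0 GC boxes and 2 CCAAT boxes. The GC content of these windows is 58.8%, 53.6% and 41.6%.

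For 17 of the 32 genes, against 8.21% of tested genes, control was lowest, both obesity libraries highest and both resveratrol libraries between them, but edgeR called 0 of them at an adjusted p of 0.05 in all 3 comparisons. Summed over all 32, the level was 1770 CPM in control. It was 6796 and 6887 CPM in obesity libraries 1 and 2, and 2996 and 5957 CPM in resveratrol libraries 1 and 2. Resveratrol library 2 thus lay near the obesity pair and resveratrol library 1 between control and obesity. In bulk tissue, fewer cells of a type and less RNA per cell cannot be told apart.

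**Figure D1:**
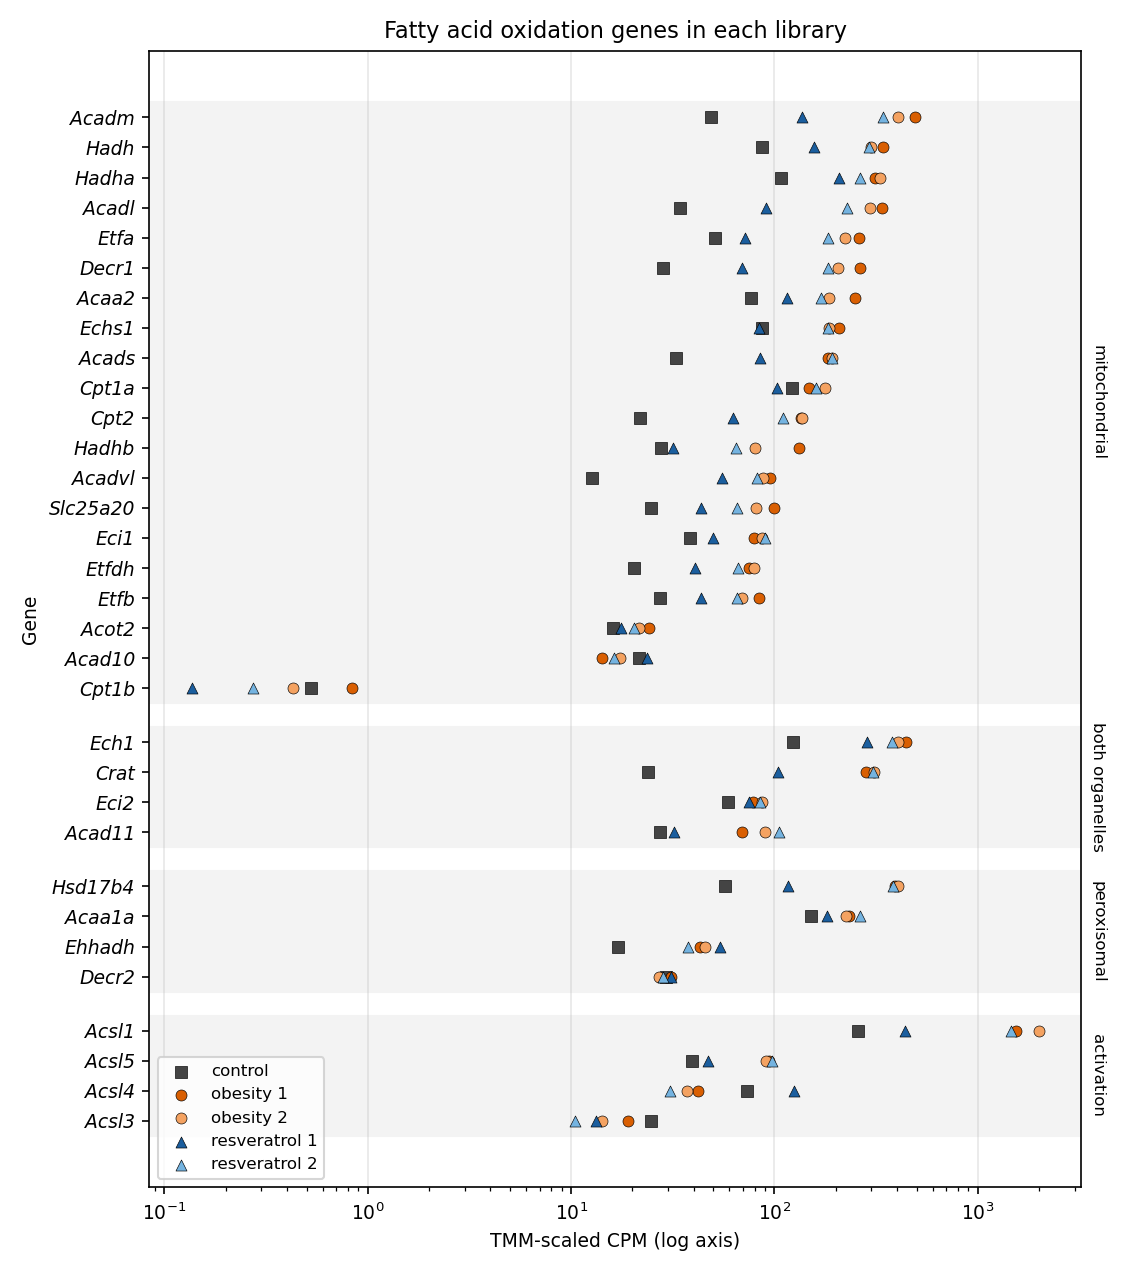
TMM-scaled CPM of the 32 genes on a log axis, with each point 1 library (square, control; circles, obesity 1 and 2; triangles, resveratrol 1 and 2), grouped by class and ordered by the obesity mean. The control square is the leftmost point for most mitochondrial genes, and the resveratrol 1 triangle lies between it and the obesity circles.

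The first comparison asked how the obesity libraries differed from the control library, which held few adipocyte and many epididymis transcripts. In obesity 28 of 32 members had a higher fitted level than in control and 4 a lower one, against 46.9% and 52.7% of all tested genes. The median log2 difference was 1.56, against -0.10 over all tested genes. In edgeR's quasi-likelihood test 0 members passed an adjusted p of 0.05, as did 0% of all tested genes, with adjusted p from 0.16 to 0.989. At an unadjusted p under 0.05, 18 of 32 were higher and 0 lower, where 12.6% of tested genes were higher and 11.6% lower. Both obesity libraries lay above the control library for 27 members, against 40.8% of tested genes, and below it for 3 (Acsl3, Acsl4 and Acad10), against 48.6%. DESeq2 called 15 members, all higher, where it called 9.85% of the 43522 genes with any count. That base is wider than the 24779 genes of the main fit and takes in genes with very few counts. In limma-voom 0 members were called, with 19 higher at an unadjusted p under 0.05, where 7726 of 24779 genes passed in either direction. With no filter on low counts edgeR called 14 members and 5.92% of genes. A fit of obesity and control alone takes its spread from the obesity pair, and there edgeR called 24 members, 23 of them higher, and 39.4% of tested genes. With either resveratrol library left out it also called 24, and 37.9% (without resveratrol library 1) or 37.3% (without resveratrol library 2) of tested genes.

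The second comparison asked how obese fat from resveratrol-treated mice differed from that given vehicle. In resveratrol 28 of 32 members had a lower fitted level than in obesity and 4 a higher one, against 45.1% and 52.8% of all tested genes. The median log2 difference was -0.49, against 0.05 over all tested genes. In edgeR's quasi-likelihood test 0 members passed an adjusted p of 0.05, as did 0% of all tested genes, and the smallest adjusted p was 0.899. At an unadjusted p under 0.05, 0 members were lower, where 0.428% of tested genes were, and 0 were higher, where 1.91% were. DESeq2 called 0 members and 0.487% of genes with any count, and limma-voom called 0 members and 0% of tested genes. With no filter on low counts edgeR also called 0 members, and 0.0574% of genes with any count. For 20 of 32 members both resveratrol libraries lay below both obesity libraries, against 16.7% of tested genes, and for 0 members both lay above, against 16.9%. The size of this difference rested on resveratrol library 1. Without it the median was -0.18 with 0 members and 0.136% of tested genes called. Without resveratrol library 2 it was -0.94 with 17 called (16 lower, and Acsl4 higher), where 19.5% of tested genes were called. Resveratrol library 2 by itself lay below both obesity libraries for 22 of 32 members, against 29.9% of tested genes, and resveratrol library 1 for 28, against 37.8%.

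In the third comparison 29 of 32 members had a higher fitted level in resveratrol than in control and 3 a lower one, against 51.4% and 48.5% of all tested genes. The median log2 difference was 1.13, against 0.05 over all tested genes. Both resveratrol libraries lay above the control library for 25 members, against 37.7% of tested genes, and below it for Acsl3 and Cpt1b, against 41%. In edgeR's quasi-likelihood test 0 members and 0% of tested genes passed an adjusted p of 0.05, the smallest among members being 0.205. At an unadjusted p under 0.05, 12 members were higher, against 10.5% of tested genes, and Acsl3 was lower, against 8.05%. DESeq2 called 6 members (Acadvl, Crat, Cpt2, Acadm, Acadl and Acads), all higher, and 6.82% of genes with any count. With no filter edgeR called 6 members and 3.84% of genes, and limma-voom called 0 members and 0.323%. Leaving out resveratrol library 1 moved the median to 1.32, with 25 members and 30.7% of tested genes called by edgeR. Leaving out resveratrol library 2 moved it to 0.74, with 12 members and 17.2% of tested genes called. The comparisons share libraries and are not independent of one another.

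**Figure D2:**
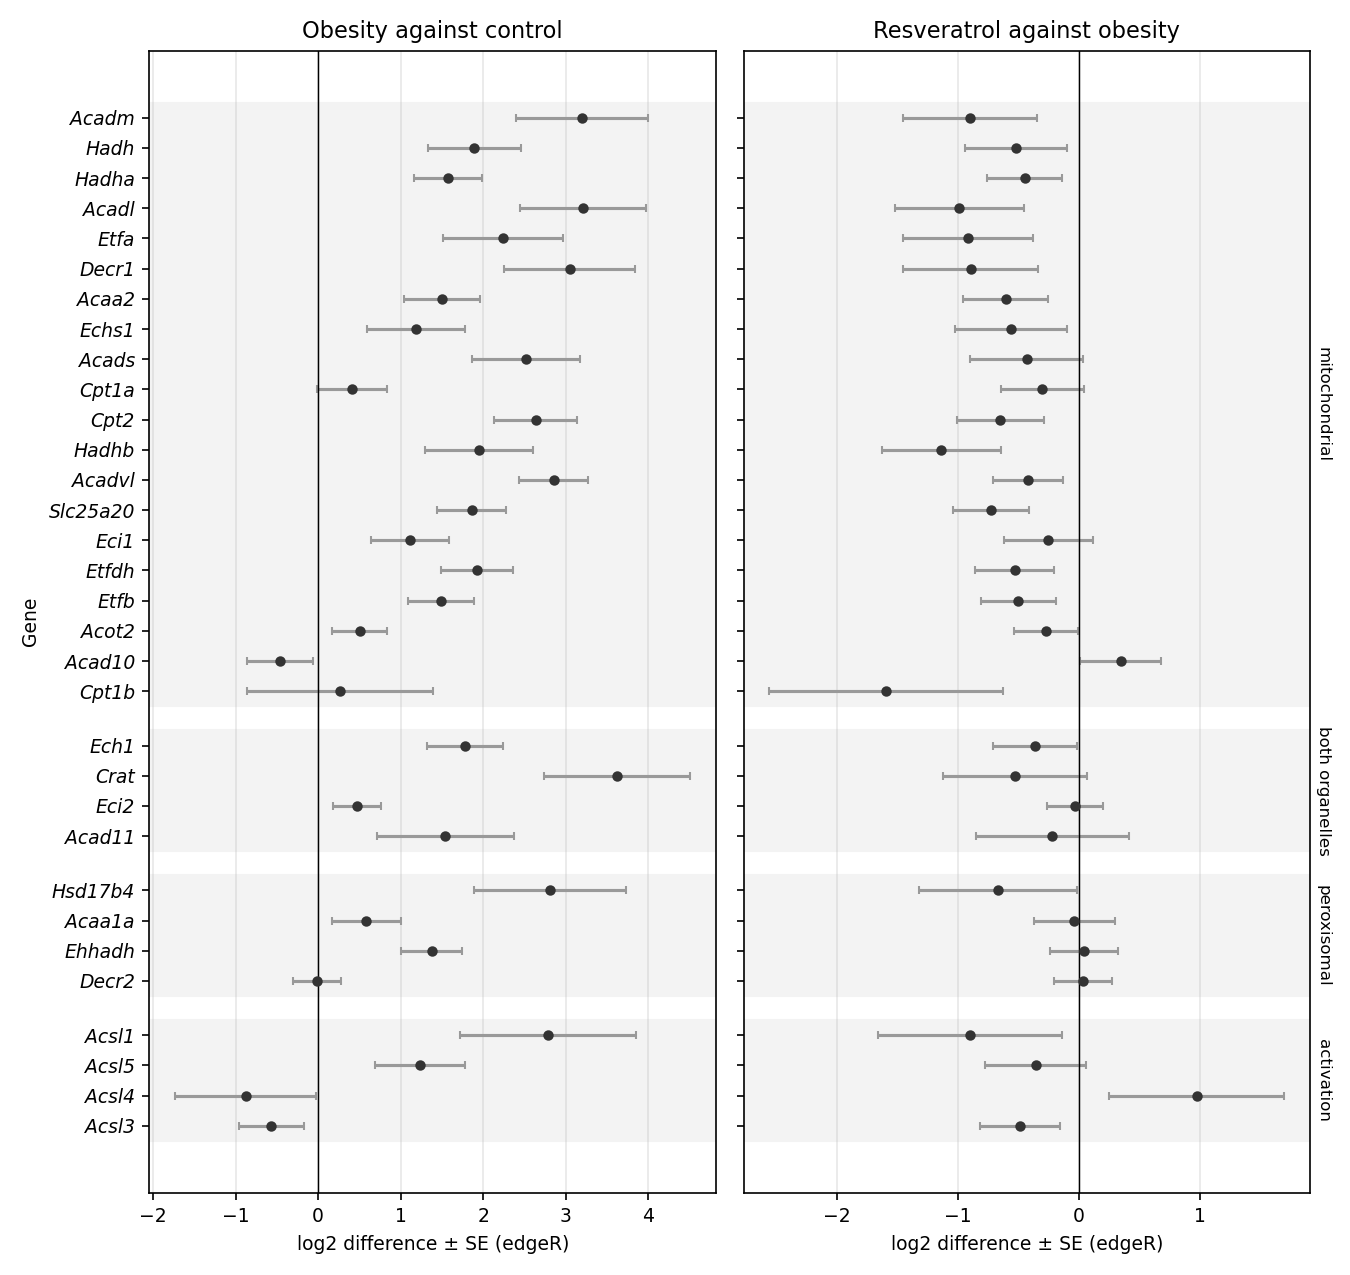
Log2 difference of each gene with its SE from edgeR's quasi-likelihood fit, for obesity against control (left) and resveratrol against obesity (right), grouped by class. The mitochondrial genes lie mostly to the right of 0 on the left panel, with a median of 1.88, and to the left of 0 on the right panel, with a median of -0.55.

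Acyl-CoA synthetases attach coenzyme A to a free fatty acid, and they split by isoform. Acsl1 (ENSMUSG00000018796), the main synthetase of adipocytes, was at 257 CPM in control, at 1537 and 1994 CPM in obesity and at 439 and 1457 CPM in resveratrol. All its obesity and resveratrol libraries were above control, and resveratrol library 1 was far below its partner. Its log2 difference in obesity was 2.78 with an SE of 1.07 (edgeR adjusted p = 0.213). Acsl5, an isoform of mitochondrial and reticulum membranes, was at 39.4 CPM in control, at 94.1 and 91.4 CPM in obesity and at 47.3 and 97.4 CPM in resveratrol.

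Acsl3 and Acsl4 lay the other way in obesity. Acsl3, an isoform of the reticulum and lipid droplets, was at 24.6 CPM in control, at 19.0 and 14.2 CPM in obesity and at 13.2 and 10.5 CPM in resveratrol. Control was thus the highest library, and its log2 difference of -1.06 (SE 0.39) for resveratrol against control had an edgeR p of 0.0498 and an adjusted p of 0.269. Acsl4, which prefers arachidonic acid, was at 72.9 CPM in control, at 42.3 and 37.0 CPM in obesity and at 125 and 30.6 CPM in resveratrol, so that its resveratrol libraries lay on either side of all others. Acsl1 made up 65.2% of the summed CPM of the 4 synthetases in control, 90.8% and 93.3% in obesity, and 70.3% and 91.3% in resveratrol libraries 1 and 2.

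The carnitine shuttle carries long chains into the matrix. Cpt1a (ENSMUSG00000024900), the liver-type outer membrane transferase and a control point of the pathway, spanned a narrow range, at 122 CPM in control, at 148 and 178 CPM in obesity and at 103 and 161 CPM in resveratrol. Its log2 difference in obesity was 0.41 with an SE of 0.42 (edgeR adjusted p = 0.535). Cpt1b, the muscle-type isoform, was near the floor in every library, at 0.523 CPM in control, at 0.835 and 0.428 CPM in obesity and at 0.136 and 0.272 CPM in resveratrol, from 3 to 16 counts. In resveratrol library 1, where Cpt1b had 3 counts, the skeletal muscle list summed to 1091 CPM, led by Acta1 at 810.5 CPM and Ckm at 255 CPM. Tnnt3, Actn3 and Tnnc2 were also highest there, at 19.0, 4.22 and 1.45 CPM. However, Myh1 was at 0.0454 CPM and Mb at 0.727 CPM there, against 2.06 and 6.73 CPM in control, and Myh4 had 0 counts. The list was therefore not raised as a whole.

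The inner membrane steps differed more. Cpt2 (ENSMUSG00000028607), which rebuilds acyl-CoA inside the matrix, was at 21.8 CPM in control, at 135 and 136 CPM in obesity and at 62.6 and 111 CPM in resveratrol. The obesity libraries nearly coincided and both resveratrol libraries lay below them. Its log2 difference in obesity was 2.64 with an SE of 0.51 (edgeR adjusted p = 0.179). Slc25a20, the carnitine-acylcarnitine carrier, was at 24.8 CPM in control, at 99.2 and 81.0 CPM in obesity and at 43.5 and 65.4 CPM in resveratrol. With a log2 difference of -0.73 (SE 0.31, edgeR adjusted p = 0.899), Slc25a20 had the smallest p of any member for resveratrol against obesity. Crat (ENSMUSG00000026853), which moves short acyl groups to and from carnitine in both organelles, was at 23.9 CPM in control, at 282 and 308 CPM in obesity and at 104 and 305 CPM in resveratrol. It had the greatest obesity difference of the 32, a log2 value of 3.62 with an SE of 0.88 (edgeR adjusted p = 0.182), while resveratrol library 2 lay within the obesity pair.

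The acyl-CoA dehydrogenases, which begin each turn, each handle a range of chain lengths. Acadvl (ENSMUSG00000018574), for very long chains, was at 12.7 CPM in control, at 95.5 and 88.1 CPM in obesity and at 55.4 and 81.7 CPM in resveratrol. Its log2 difference in obesity, 2.85 with an SE of 0.42, had the smallest p of all members (edgeR adjusted p = 0.16). Acadl (ENSMUSG00000026003), for long chains, was at 34.2 CPM in control, at 337 and 296 CPM in obesity and at 91.1 and 228 CPM in resveratrol. Acadm (ENSMUSG00000062908), for medium chains, was at 48.8 CPM in control, at 489 and 405 CPM in obesity and at 137 and 342 CPM in resveratrol. For all 3 of these genes control was lowest and both resveratrol libraries lay between control and the obesity pair, against 8.21% of tested genes. The log2 differences of Acadl were 3.21 (SE 0.77) in obesity and -0.99 (SE 0.53) in resveratrol against obesity, with edgeR adjusted p of 0.182 and 0.899.

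Acads (ENSMUSG00000029545), for short chains, was at 32.8 CPM in control, at 183 and 192 CPM in obesity and at 85.4 and 192 CPM in resveratrol. Resveratrol library 2 was level with the higher obesity library, so the groups overlapped. Acad11, a dehydrogenase of long chains found in both organelles, likewise overlapped, at 27.4 CPM in control, at 69.5 and 90.2 CPM in obesity and at 32.2 and 105 CPM in resveratrol. Acad10, a less studied member of the family, lay against its class, at 21.7 CPM in control, at 14.1 and 17.4 CPM in obesity and at 23.7 and 16.3 CPM in resveratrol. It was the mitochondrial member below control in both obesity libraries, with a log2 difference of -0.46 and an SE of 0.40 (edgeR adjusted p = 0.47).

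All 5 enzymes from hydration to thiolysis had higher fitted levels in obesity than in control, with log2 differences from 1.18 to 1.94. For all 5, both resveratrol libraries lay below both obesity libraries, as they did for 16.7% of tested genes. Hadha (ENSMUSG00000025745), the alpha subunit of the trifunctional protein, was at 108 CPM in control, at 312 and 329 CPM in obesity and at 208 and 262 CPM in resveratrol. Hadhb (ENSMUSG00000059447), the beta subunit, was at 27.6 CPM in control, at 132 and 80.4 CPM in obesity and at 31.6 and 65.0 CPM in resveratrol. Hadhb in resveratrol library 1 was close to control. For resveratrol against obesity its log2 difference was -1.14 with an SE of 0.49 (edgeR adjusted p = 0.899), against -0.45 with an SE of 0.31 for Hadha. The ratio of Hadha to Hadhb CPM, from the gene pair whose shared upstream bases are printed above, was 3.90 in control, 2.36 and 4.10 in obesity, and 6.57 and 4.04 in resveratrol, so the groups overlapped.

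Hadh, the hydroxyacyl-CoA dehydrogenase for shorter chains, was at 86.6 CPM in control, at 343 and 300.2 CPM in obesity and at 157 and 291 CPM in resveratrol. Echs1, the short-chain enoyl-CoA hydratase, was at 86.8 CPM in control, at 208 and 186 CPM in obesity and at 83.9 and 183 CPM in resveratrol. Resveratrol library 1 was at the control level for Echs1, and its partner was just under the obesity pair. Acaa2, the mitochondrial thiolase, was at 76.8 CPM in control, at 248 and 186 CPM in obesity and at 115 and 170 CPM in resveratrol. Their edgeR adjusted p for obesity against control were 0.184, 0.271 and 0.186.

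Electron transfer flavoprotein takes electrons from the dehydrogenases and passes them to its ubiquinone oxidoreductase. Etfa (ENSMUSG00000032314), its alpha subunit, was at 51.1 CPM in control, at 260 and 221 CPM in obesity and at 72.1 and 183 CPM in resveratrol. Etfb, the beta subunit, was at 27.4 CPM in control, at 84.0 and 69.6 CPM in obesity and at 43.5 and 65.2 CPM in resveratrol. Etfdh, the oxidoreductase, was at 20.4 CPM in control, at 75.3 and 79.5 CPM in obesity and at 40.7 and 66.6 CPM in resveratrol. All 3 were above control in both obesity libraries, as were 40.8% of tested genes, and in both resveratrol libraries, as were 37.7%. In both resveratrol libraries all 3 were also below both obesity libraries, against 16.7% of tested genes. Their log2 differences in obesity were 2.24, 1.49 and 1.93, with edgeR adjusted p of 0.193, 0.182 and 0.182.

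Enzymes that handle unsaturated chains or release free fatty acids were more mixed. Decr1 (ENSMUSG00000028223), the mitochondrial dienoyl-CoA reductase, was at 28.2 CPM in control, at 263 and 204 CPM in obesity and at 69.2 and 182 CPM in resveratrol. Its log2 difference in obesity was 3.05 with an SE of 0.79 (edgeR adjusted p = 0.182), among the greatest of the members. Eci1, a mitochondrial enoyl-CoA isomerase, was at 38.5 CPM in control, at 79.5 and 87.1 CPM in obesity and at 49.7 and 89.8 CPM in resveratrol. Eci2, an isomerase found in both organelles, was at 59.1 CPM in control, at 78.0 and 86.5 CPM in obesity and at 75.3 and 85.3 CPM in resveratrol. Resveratrol library 2 was not below the obesity pair for either isomerase.

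Ech1 (ENSMUSG00000053898), a dienoyl-CoA isomerase of both organelles, was at 124 CPM in control, at 445 and 406 CPM in obesity and at 286 and 377 CPM in resveratrol, so that the groups did not overlap. Acot2, a mitochondrial thioesterase that frees the fatty acid from coenzyme A, was at 16.1 CPM in control, at 24.2 and 21.7 CPM in obesity and at 17.6 and 20.3 CPM in resveratrol. Its near-identical copy Acot1 stood at 34.2 CPM in control but at 9.39 and 3.71 CPM in obesity, so how reads were split between the copies makes the Acot2 value uncertain. Per kilobase of exon, Ech1 had the highest mean level of the 32 in obesity, at 186 CPM per kb. Acsl1 at 168, Acadl at 158 and Acaa2 at 143 CPM per kb came next, and Acad10 at 2.60 and Cpt1b at 0.187 CPM per kb were the lowest.

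The 4 peroxisomal members did not share a pattern. Hsd17b4 (ENSMUSG00000024507), the D-specific multifunctional enzyme that handles very long and branched chains, was at 56.9 CPM in control, at 392 and 404 CPM in obesity and at 117 and 383 CPM in resveratrol. It resembled the mitochondrial dehydrogenases, with a log2 difference in obesity of 2.81 and an SE of 0.92 (edgeR adjusted p = 0.193). Ehhadh (ENSMUSG00000022853), the L-specific bifunctional enzyme, was at 17.1 CPM in control, at 43.0 and 45.5 CPM in obesity and at 53.7 and 37.5 CPM in resveratrol. Here resveratrol library 1 was the highest of the 5 libraries, so the 2 peroxisomal multifunctional enzymes differed in that library. Ehhadh had log2 differences of 1.38 (SE 0.37, edgeR adjusted p = 0.182) for obesity and 1.42 (SE 0.37, edgeR adjusted p = 0.238) for resveratrol, each against control.

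Acaa1a (ENSMUSG00000036138), a peroxisomal thiolase, was at 152 CPM in control, at 232 and 224 CPM in obesity and at 180 and 264 CPM in resveratrol, on either side of the obesity pair. Decr2 (ENSMUSG00000036775), the peroxisomal dienoyl-CoA reductase, was flat, at 29.3 CPM in control, at 31.0 and 27.1 CPM in obesity and at 31.0 and 28.5 CPM in resveratrol. Its log2 difference in obesity was -0.010 with an SE of 0.29 (edgeR adjusted p = 0.989), whereas its mitochondrial counterpart Decr1 had 3.05. Acaa1b, the copy of Acaa1a and no member of the list, was at 8.89 CPM in control, at 170 and 127 CPM in obesity and at 30.1 and 158 CPM in resveratrol. As a share of Acaa1a this was 5.85% in control, 73.3% and 56.6% in obesity, and 16.7% and 59.8% in resveratrol. These copies are near-identical, so the split of reads between them is uncertain.

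**Figure D3:**
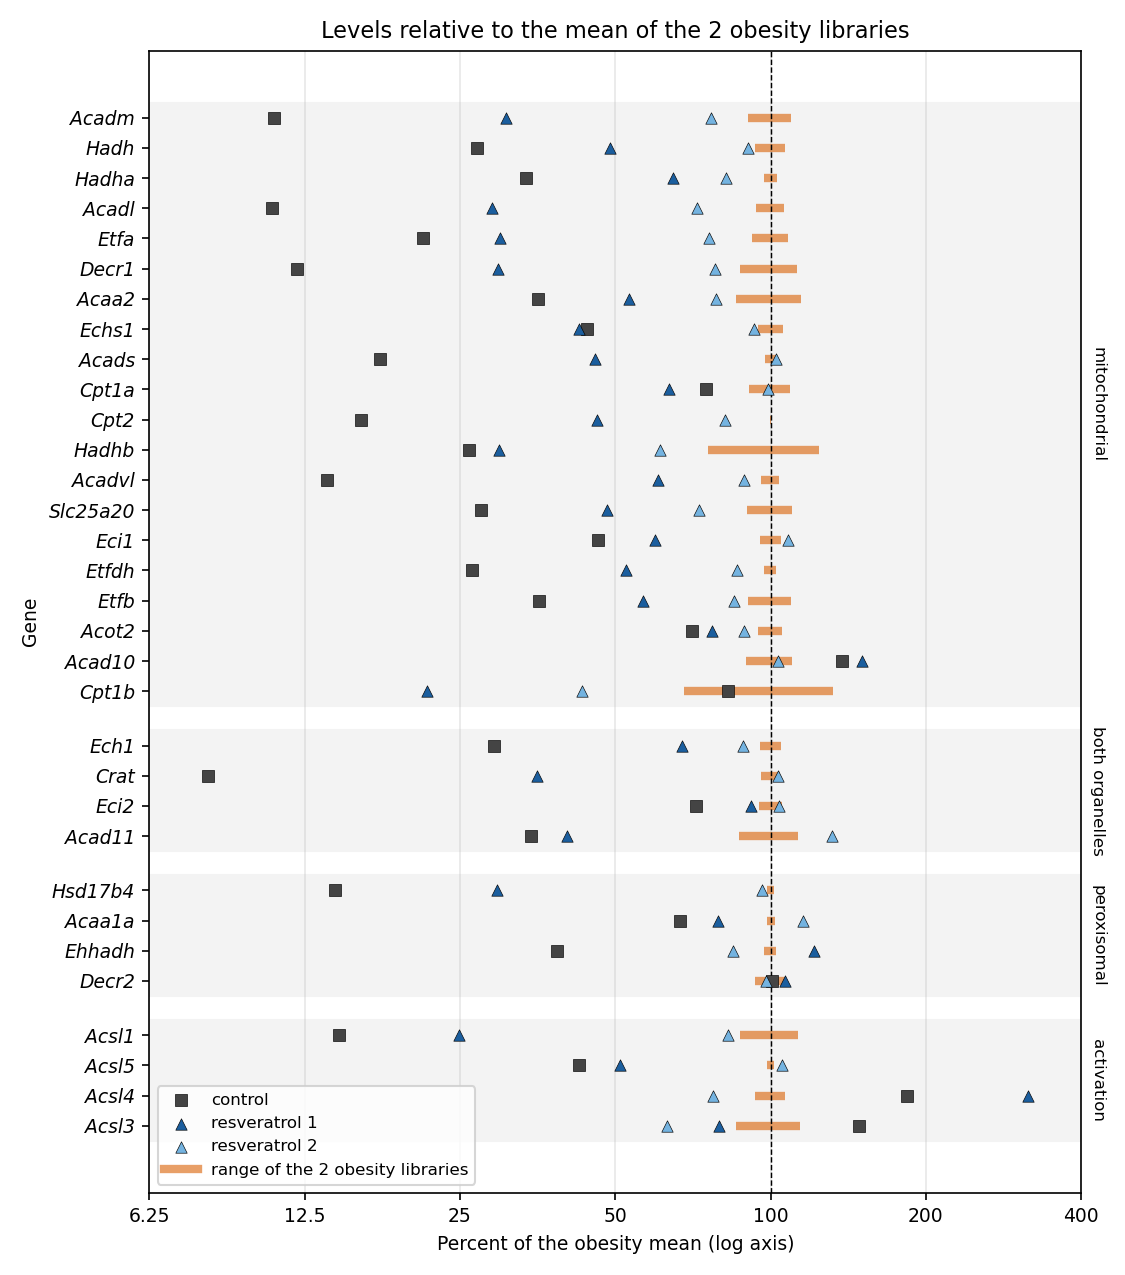
Level of each gene in the control library (square) and in resveratrol libraries 1 and 2 (triangles) as a percent of the obesity mean, on a log axis, with a bar for the range of the 2 obesity libraries. Control values run from 8.11% (Crat) to 184% (Acsl4), and Acsl4, Acad10, Ehhadh and Decr2 are the genes with resveratrol library 1 above 100%.

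By class, 19 of 20 mitochondrial members were higher in obesity than in control, against 46.9% of tested genes, with a median log2 difference of 1.88 and 14 higher at an unadjusted p under 0.05, against 12.6%. Of the 4 peroxisomal members 3 were higher, with a median of 0.98, and 2 had an unadjusted p under 0.05. In resveratrol against obesity, 19 of 20 mitochondrial members were lower, against 45.1% of tested genes, with a median of -0.55, and for 16 of 20 the groups did not overlap, against 16.7%. Among the peroxisomal members 2 were lower and 2 higher, with a median of -0.0035, and for Hsd17b4 alone of the 4 the groups did not overlap. The members of both organelles had medians of 1.66 in obesity and -0.29 in resveratrol against obesity. With 4 genes in it, the peroxisomal class leans on each of its members.

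The mean log2(CPM + 0.5) of the peroxisomal members minus that of the mitochondrial members was 0.54 for control, -0.06 and 0.06 for obesity, and 0.57 and 0.22 for resveratrol libraries 1 and 2. Both obesity libraries thus had the lowest values, and both resveratrol libraries lay above them. The difference was -0.54 for obesity against control and 0.40 for resveratrol against obesity, or 0.22 without resveratrol library 1. For resveratrol against control it was -0.14, and 0.04 without resveratrol library 2, so its sign rests on 1 library. These are descriptions of a score over chosen genes and were given no test.

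**Figure D4:**
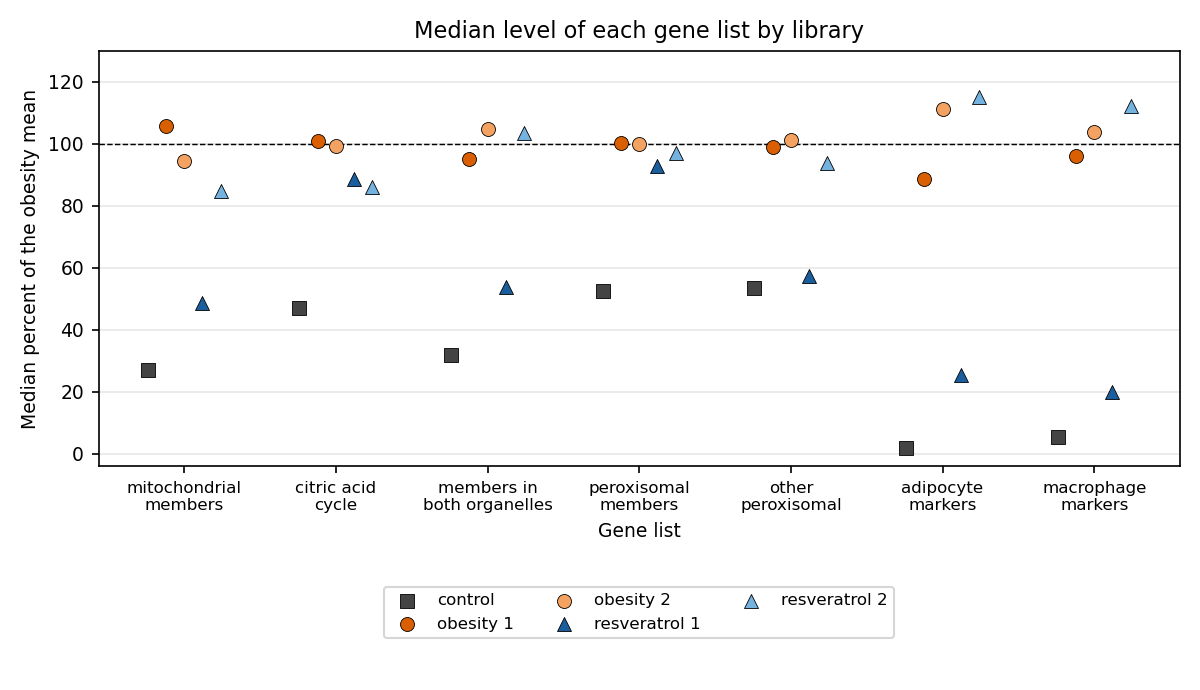
Median level of each gene list in each library, as a percent of the obesity mean, over genes with a mean of at least 1 CPM in obesity. In resveratrol library 1 the mitochondrial members are at 48.8% and the citric acid cycle at 88.5%, while adipocyte and macrophage markers are at 25.4% and 19.9%.

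The citric acid cycle, which oxidises the acetyl-CoA that beta-oxidation makes, gave a comparison within the same organelle. All 16 of its genes were higher in obesity than in control, against 46.9% of tested genes, with a median log2 difference of 1.09 and 11 at an unadjusted p under 0.05, against 12.6%. The median citric acid cycle gene stood at 47.0% of the obesity mean in control, 88.5% in resveratrol library 1 and 86.0% in resveratrol library 2. The mitochondrial oxidation members stood at 26.9%, 48.8% and 84.8% in those libraries, so the lists were alike in resveratrol library 2 and apart in the other 2. The mean log2 level of the mitochondrial members minus that of the cycle was -1.28 in control, -0.70 and -0.80 in obesity, and -1.41 and -0.80 in resveratrol. For resveratrol against obesity, 15 of 16 cycle genes were lower, against 45.1% of tested genes, and for 13 the groups did not overlap, against 16.7%. Beside these values, adipocyte markers stood at 1.84%, 25.4% and 115%, and macrophage markers at 5.35%, 19.9% and 112%. The 15877 tested genes with an obesity mean of at least 1 CPM stood at a median of 82.5%, 92.1% and 97.8%.

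Among the cycle genes Dld, the lipoamide dehydrogenase, was at 44.5 CPM in control, at 190 and 176 CPM in obesity and at 88.3 and 142 CPM in resveratrol. Cs, citrate synthase, was at 109 CPM in control, at 395 and 398 CPM in obesity and at 225 and 308 CPM in resveratrol. Both lay lower in resveratrol than in obesity in every library. Fh1, fumarase, was close to the obesity pair in both resveratrol libraries, at 44.1 CPM in control, at 98.1 and 105 CPM in obesity and at 97.8 and 96.4 CPM in resveratrol. Suclg1, a succinyl-CoA ligase subunit, was the cycle gene with a higher fitted level in resveratrol than in obesity, at 67.0 CPM in control, at 72.5 and 90.9 CPM in obesity and at 125 and 85.0 CPM in resveratrol.

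The 26 other peroxisomal genes include oxidases, transporters and assembly factors. In obesity 22 of them were higher than in control, against 46.9% of tested genes, with a median log2 difference of 0.88. At an unadjusted p under 0.05 in edgeR, 10 were higher and 1 lower, against 12.6% and 11.6% of tested genes. Acox3, a branched-chain oxidase, was among the lower ones, at 365 CPM in control, at 72.7 and 64.9 CPM in obesity and at 29.2 and 81.1 CPM in resveratrol. Acox2, a further branched-chain oxidase, was at 1.08 CPM in control and at 0.157 CPM or less in the other libraries. Pex19, an assembly factor for peroxisomal membranes, had a log2 difference in obesity of 1.85 with an SE of 0.48 (edgeR adjusted p = 0.182).

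For resveratrol against obesity, 19 of those 26 genes were lower, against 45.1% of tested genes, with a median log2 difference of -0.30. Of the 26, 0 had an unadjusted p under 0.05 in edgeR, against 0.428% of tested genes lower and 1.91% higher. Pex7 and Pex13, both needed for import into peroxisomes, had the smallest p among the lower ones, with log2 differences of -0.57 (SE 0.30) and -0.84 (SE 0.49). Crot, which makes carnitine esters of the shortened chains, was at 43.9 CPM in control, at 47.1 and 46.3 CPM in obesity and at 145 and 40.6 CPM in resveratrol. As for Ehhadh, the value of resveratrol library 1 was the highest of the 5.

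The 16 other mitochondrial acyl-CoA genes were less uniform than the members, with 10 higher and 6 lower in obesity than in control. Among all tested genes these shares were 46.9% and 52.7%. The median log2 difference of the 16 was 0.47. At an unadjusted p under 0.05, 3 were higher and 1 lower, against 12.6% and 11.6% of tested genes. Methylmalonyl-CoA mutase (Mut), which takes up the end product of odd chains, was at 21.8 CPM in control, at 75.5 and 95.02 CPM in obesity and at 41.6 and 86.4 CPM in resveratrol. Acad9, a dehydrogenase that also helps assemble respiratory complex I, was at 24.5 CPM in control, at 57.1 and 67.0 CPM in obesity and at 29.8 and 52.2 CPM in resveratrol. Acad8, a dehydrogenase of valine breakdown, was lower, at 72.4 CPM in control, at 35.0 and 37.4 CPM in obesity and at 56.0 and 41.2 CPM in resveratrol. Slc22a5, the carnitine importer of the cell membrane, was at 65.7 CPM in control, at 42.0 and 41.4 CPM in obesity and at 39.1 and 43.7 CPM in resveratrol.

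Cpt1c, the brain-type relative of Cpt1a, was at 11.6 CPM in control, at 6.52 and 4.90 CPM in obesity and at 27.7 and 10.8 CPM in resveratrol. Both resveratrol libraries were above both obesity libraries, the reverse of Cpt2 and Slc25a20. Its log2 difference for resveratrol against obesity was 1.75 with an SE of 0.59 (edgeR adjusted p = 0.899). Mcee, an epimerase of odd-chain breakdown, differed there by a log2 value of -0.26 (SE 0.25).

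Regulators of the pathway did not all follow the enzymes. Of 13 regulators 11 were higher in obesity than in control, against 46.9% of tested genes. Of these 11, 5 had an unadjusted p under 0.05 in edgeR, where 12.6% of tested genes were higher at that threshold. Pparg, the receptor that drives adipocyte formation, was at 1.64 CPM in control, at 129 and 168 CPM in obesity and at 20.9 and 144 CPM in resveratrol. Ppara, the receptor best known for inducing fatty acid oxidation, was low, at 1.12 CPM in control, at 3.76 and 3.24 CPM in obesity and at 5.77 and 2.61 CPM in resveratrol. Ppargc1a, a coactivator of mitochondrial genes, was at 3.66 CPM in control, at 3.65 and 1.62 CPM in obesity and at 2.14 and 1.79 CPM in resveratrol, and its log2 difference in obesity was -0.47 with an SE of 0.79 (edgeR adjusted p = 0.707).

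Esrra, a nuclear receptor for mitochondrial genes, was at 35.3 CPM in control, at 94.6 and 91.3 CPM in obesity and at 79.5 and 81.8 CPM in resveratrol. With a log2 difference of 1.40 and an SE of 0.29 it had the smallest p of the regulators in obesity (edgeR adjusted p = 0.181). Ppard, a receptor of the same family as Ppara, was at 63.6 CPM in control, at 32.8 and 32.7 CPM in obesity and at 30.8 and 41.6 CPM in resveratrol. Acacb, the acetyl-CoA carboxylase whose product blocks Cpt1, was at 8.40 CPM in control, at 72.4 and 77.5 CPM in obesity and at 16.6 and 50.5 CPM in resveratrol. Both resveratrol libraries were below obesity for Acacb, with a log2 difference of -1.16 and an SE of 0.59 (edgeR adjusted p = 0.899). Its cytosolic relative Acaca, which serves fatty acid synthesis, was at 42.5 CPM in control, at 103 and 95.2 CPM in obesity and at 42.3 and 94.7 CPM in resveratrol.

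The 9 PPAR target genes were all higher in obesity than in control, against 46.9% of tested genes. For 4 of them the unadjusted p was under 0.05 in edgeR, where 12.6% of tested genes were higher at that threshold. Pdk4, the kinase that closes pyruvate dehydrogenase when fat is burned, was at 4.81 CPM in control, at 127 and 110 CPM in obesity and at 28.7 and 56.3 CPM in resveratrol. Both resveratrol libraries were thus well under the obesity pair, with a log2 difference of -1.48 and an SE of 0.41 (edgeR adjusted p = 0.899). Cd36, the fatty acid uptake receptor, was at 19.8 CPM in control, at 3171 and 3755 CPM in obesity and at 353 and 3111 CPM in resveratrol. Creb3l3, a transcription factor best known from liver, was at 0.697 CPM in control, at 3.18 and 2.57 CPM in obesity and at 0.136 and 1.01 CPM in resveratrol.

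The obesity libraries also differed from each other in thermogenic markers. Ucp1, the uncoupling protein of brown and beige fat, was at 88.6 CPM in library 1 of the pair but at 0.381 CPM in library 2. It was at 0.244 CPM in control, at a count of 0 in resveratrol library 1, and at 0.194 CPM in resveratrol library 2. The 7 brown or beige markers summed to 223 and 25.4 CPM in obesity libraries 1 and 2, and all 7 were higher in library 1. Of the mitochondrial members 13 of 20 were higher in obesity library 1 than in library 2, against 46.7% of tested genes. Summed, the mitochondrial members were at 3531 and 3159 CPM in those libraries, and what the marker difference adds to this was not tested.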

How the data were processed

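Polyadenylated RNA was sequenced in paired ends from 5 libraries, per the labels' protocols. The deposited values are unnormalised whole-number counts, 1 row per Ensembl gene, which the authors made with featureCounts on GRCm39 after FastQC, per the submitters' processing notes. The sources used here do not name the aligner, annotation release, strand setting or tool versions. Symbols matched 65.7% of identifiers and all 32 members.

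Counts were filtered with edgeR 4.0.16 (R 4.3.3) by filterByExpr by group (minimum count 10, minimum total 15) and scaled by TMM. All 5 libraries entered one robust quasi-likelihood model with a term per group, and each comparison was an F test with Benjamini-Hochberg adjustment over all 24779 genes at 0.05. Since control has no replicate, its spread is taken to equal that of the other groups. Standard errors were derived from each log2 difference and its F. Levels per kb use exon lengths of GENCODE M21. Total counts of 19540961 to 27026597 set the counting error, and 1 count was worth 0.0349 to 0.0522 CPM. Cpt1b, at 3 to 16 counts, is the member with the fewest counts.

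The members and lists were chosen with earlier results of these data known, and the class score was given no test. By rule, the genes named were the members of each step, those with the smallest p or against their class, up to 2 per direction from each other list, and Ppara, Ppargc1a, Acacb, Pdk4, Ucp1, Adipoq, Gpx5 and Myh11. A few genes that the rule would name are not reported here. Acaa1b, Acot1, Crisp1, Acta1 and the other skeletal muscle markers were named after their values were seen. Alternatives were DESeq2 1.42.0, limma-voom (limma 3.58.1), median-ratio size factors, no filter or a minimum count of 50, only the groups compared, a replicate block, other forms of the class score, and leaving out each library. Figures used Python 3.11.15 and matplotlib 3.10.9.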

Additional observations from a re-analysis of the deposited data

How the results depend on the processing

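Of the members called, edgeR's 0 in obesity against control became 15 with DESeq2, 14 with no low-count filter and 24 with only the groups compared, and 0 to 24 over the left-out libraries. In resveratrol against control it became 6 with DESeq2 and 6 with no low-count filter, and 0 to 25 over the left-out libraries. In resveratrol against obesity it was 0 to 17 over the left-out libraries, 17 being without resveratrol library 2, and 0 in every other alternative run. With a resveratrol library left out, the spread of the fit rests on the obesity pair alone. In every setting where members became called, many other genes did too, at the shares given with each comparison above. For obesity against control these were 9.85% with DESeq2 and 5.92% with no low-count filter, of genes with any count. With only the groups compared the share was 39.4% of tested genes. The rise from 0 was therefore not confined to the members. Over the left-out libraries the median log2 difference ran from -0.94 to -0.18 in resveratrol against obesity and from 0.74 to 1.32 in resveratrol against control. The obesity and resveratrol libraries share the numbers 1 and 2, which the labels do not tie to an animal or day. Same-numbered libraries deviated with a correlation of 0.282 from 2 pairs, and with the number as a replicate block edgeR called 0 members in each comparison, with medians of 1.48, -0.54 and 0.92. The class score kept its sign in all alternatives for obesity against control (-0.60 to -0.46) and for resveratrol against obesity (0.22 to 0.57). For resveratrol against control it ran from -0.32 to 0.04.

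Single genes whose log2 difference changed sign are given here, and the cause was not tested. In obesity against control Decr2 was 0.028 with no filter and 0.066 with the replicate block. In resveratrol against control Decr2 was -0.0074 with DESeq2, -0.027 with median-ratio size factors and -0.089 at a minimum count of 50. There Acsl4 was -0.24 with limma-voom and -0.016 at that minimum, and Cpt1a was -0.15 with the replicate block. Over the left-out libraries, in obesity against control, Cpt1b ran from -0.26 to 0.67 and Decr2 from -0.089 to 0.088. In resveratrol against obesity Decr2 ran from -0.064 to 0.14, Eci2 from -0.12 to 0.065, Crat from -1.49 to 0.059, Acsl4 from -0.36 to 1.66, Acsl5 from -0.96 to 0.083, Acads from -1.13 to 0.049, Acad11 from -1.30 to 0.41, Acaa1a from -0.33 to 0.22, Ehhadh from -0.23 to 0.29 and Eci1 from -0.74 to 0.12. In resveratrol against control Acsl4 ran from -1.23 to 0.80, Decr2 from -0.016 to 0.10, Cpt1a from -0.22 to 0.42, Acad10 from -0.38 to 0.15 and Echs1 from -0.026 to 1.10. Cpt1b was not tested at a minimum count of 50. With 1 control library and 2 per other group, differences of the size seen between the resveratrol libraries limit every comparison.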

Other observations

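Resveratrol library 2 held few epididymis and smooth muscle transcripts, and its values are set here beside the obesity pair. It is a single library, and the obesity pair itself differed in brown or beige markers. The part that adipocyte content plays in the values below was not tested. In it, 14 of 16 citric acid cycle genes and 16 of 20 mitochondrial oxidation members lay below both obesity libraries, against 29.9% of tested genes, while the adipocyte markers stood at a median of 115% and 2 of 10 lay below both. The endothelium markers of that library stood at a median of 194% of the obesity mean. All 6 lay above both obesity libraries, against 31.9% of tested genes. The 6 liver markers summed to 48.9 CPM there against 13.7 and 11.5 CPM in obesity. With resveratrol library 1 left out, edgeR called 0 members in resveratrol against obesity and 0 had an unadjusted p under 0.05, and the part of the endothelium and liver markers was not tested.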
